A study of Mus musculus with 16 samples.

Results

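The genes described here are the alpha-mannosidases that trim N-glycans in the endoplasmic reticulum (ER) and Golgi and the enzymes that start N-glycan branching. They are Man1b1, Man1a, Man1a2, Man1c1, Mgat1, Man2a1, Man2a2 and Mgat2, 8 of the 39179 genes in the files. The set was chosen by measured values: Man1a2 was picked because it stood lower in samples labelled tamoxifen in both regions, and its relatives were added by function. All 8 were found in every library, and all 8 are among the 18074 genes that passed the filter on low counts. Levels are given in CPM, a gene's count per 1000000 counts in genes of the sample, and fold changes come from edgeR after TMM scaling, which equalizes the bulk of the genes between samples.

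N-glycans are attached to proteins in the ER as a mannose-rich precursor. Class I mannosidases remove mannoses first, Man1b1 in the early secretory pathway and Man1a, Man1a2 and Man1c1 in the Golgi. Mgat1 then adds an N-acetylglucosamine that opens the way to hybrid glycans, Man2a1 and Man2a2 remove further mannoses, and Mgat2 adds the N-acetylglucosamine that makes a complex glycan. In brain, adhesion molecules, ion channels and receptors carry such glycans, and mannose-rich forms are abundant.

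Total RNA was sequenced from hippocampal and cortical neurons of adult TERT-AD mice of the strain labelled B6.129S6.SvEvTac. The study's stated question sets neurons with activated Tert, the catalytic subunit of telomerase, against control neurons. The 16 libraries form 4 groups of 4: hippocampal neurons labelled tamoxifen, hippocampal controls, cortical neurons labelled tamoxifen and cortical controls, the controls being vehicle-treated. All groups carry the same TERT-AD designation. The sources used here do not give the construct, its driver, the exact age or how neurons were isolated. Libraries 1 and 2 of a group, and libraries 3 and 4, were so alike that their counts were added, giving samples A and B of each group, 8 samples in all. The labels do not say which libraries come from separate animals, so the p-values cover no more than the spread among the 8 samples, which may be technical.

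The samples hold 83527470 to 108293362 counts in genes. Tert itself stood at 1.04 and 2.16 CPM in hippocampal samples labelled tamoxifen, against 1.47 and 3.89 CPM in hippocampal controls. In cortex it stood at 1.04 and 2.34 CPM in samples labelled tamoxifen, against 0.473 and 1.11 CPM in controls. The groups overlap in both regions, so Tert does not check the labels, and groups are called by them. The samples were not neurons alone. The 6 oligodendrocyte markers summed to 23800 to 72300 CPM over the 8 samples and the 6 excitatory neuron markers to 5220 to 9340 CPM. Cortical sample B labelled tamoxifen stood apart, with mitochondrial genes taking 20.4% of its counts, where the other cortical samples had 29.9 to 31.5%. Its oligodendrocyte markers summed to 23800 CPM, where the other cortical samples had 52700 to 67100 CPM, and its endothelial markers to 319 CPM, where they had 490 to 542 CPM. Its inhibitory neuron markers summed to 245 CPM, where they had 96.6 to 113 CPM, and its excitatory neuron markers to 9340 CPM, where they had 5890 to 6630 CPM. Its genes lie at a median of 0.33 (log2) above the other cortical samples in CPM, and the same scaling moves the median gene by 0.16 between the cortical groups and by 0.21 between the regions, while TMM holds these medians near 0. Levels of cortical sample B and comparisons of levels between regions are to be read against that shift.

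Man1a2, picked for standing lower in samples labelled tamoxifen, was lower in every such sample than in every control, in both regions. The other 7 genes, added by function, did not share this pattern. With TMM scaling it held for 84 of all 18074 genes (0.465%), so its absence in the other 7 is no trait of the set. Man1a2 stood at 32.1 and 30.8 CPM in hippocampal samples labelled tamoxifen, against 55.2 and 62.6 CPM in hippocampal controls. Cortical samples labelled tamoxifen had 32.2 and 37.1 CPM, against 47.8 and 55.8 CPM in cortical controls. Single libraries ranged from 30.8 to 39.1 CPM when labelled tamoxifen and from 46.5 to 64.5 CPM in controls. These are the libraries summed to the 8 samples, not further replicates. The group means were 31.4 ± 0.921 CPM in hippocampal samples labelled tamoxifen and 58.9 ± 5.21 CPM in their controls (SD, n = 2 samples each). They were 34.6 ± 3.45 CPM in cortical samples labelled tamoxifen and 51.8 ± 5.67 CPM in their controls. With TMM scaling the levels were 28.8 and 29.0 CPM in hippocampal samples labelled tamoxifen, against 48.4 and 57.8 CPM in their controls. The cortical levels on that scale were 39.0 and 32.6 CPM in samples labelled tamoxifen, against 55.2 and 66.5 CPM in their controls. The log2 fold change, tamoxifen over control, was -0.88 (SE 0.16, n = 2 samples per group) in hippocampus, 0.545 times the control level. In cortex it was -0.77 (SE 0.16), 0.588 times the control level.

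Cell type markers lay beside this. In cortex 6 of 6 astrocyte markers had negative log2 fold changes (median -0.43, 4 lower at an unadjusted p under 0.05), and they summed to 985 and 1190 CPM in samples labelled tamoxifen, against 1260 and 1290 CPM in controls. The mural cell markers (5 of 5 negative, median -0.43, 1 lower at an unadjusted p under 0.05) summed to 194 and 194 CPM in samples labelled tamoxifen, against 237 and 238 CPM in controls. The endothelial markers (6 of 6 negative, median -0.43) summed to 511 and 319 CPM in samples labelled tamoxifen, against 542 and 490 CPM in controls. In hippocampus 5 of 6 astrocyte markers were positive (median 0.30, 2 higher at an unadjusted p under 0.05), while the mural and endothelial medians were -0.06 and -0.05. The oligodendrocyte markers were negative for 6 of 6 genes in both regions (median -0.19 in hippocampus and -0.23 in cortex). Microglia markers were negative for 6 of 6 genes in hippocampus (median -0.29) and 5 of 6 in cortex (median -0.17). Their hippocampal sums overlap, at 1320 and 1070 CPM in samples labelled tamoxifen, against 1210 and 1760 CPM in controls. Inhibitory neuron markers were positive for 6 of 6 genes in hippocampus (median 0.51) and 5 of 6 in cortex (median 0.30). Those of excitatory neurons were positive for 6 of 6 (median 0.08) and 5 of 6 (median 0.44). In cortex 1 inhibitory and 1 excitatory marker were higher at an unadjusted p under 0.05. Cortical inhibitory markers summed to 96.6 (A) and 245 CPM (B) in samples labelled tamoxifen, against 106 and 113 CPM in controls. The excitatory ones summed to 5890 (A) and 9340 CPM (B), against 6590 and 6630 CPM. In both lists sample A labelled tamoxifen lies below both controls in CPM. Oligodendrocyte precursor markers were positive for 4 of 4 genes in hippocampus (median 0.37, 1 higher at an unadjusted p under 0.05) and negative for 3 of 4 in cortex (median -0.09). At that p, 2.14% of all genes were higher and 1.47% lower in hippocampus, and 2.47% higher and 2.51% lower in cortex. None of these markers passed the edgeR test or was at 0, and their part in the level of Man1a2 was not tested. In these bulk samples, fewer cells of a type and less RNA per cell cannot be told apart.

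**Figure D1:**
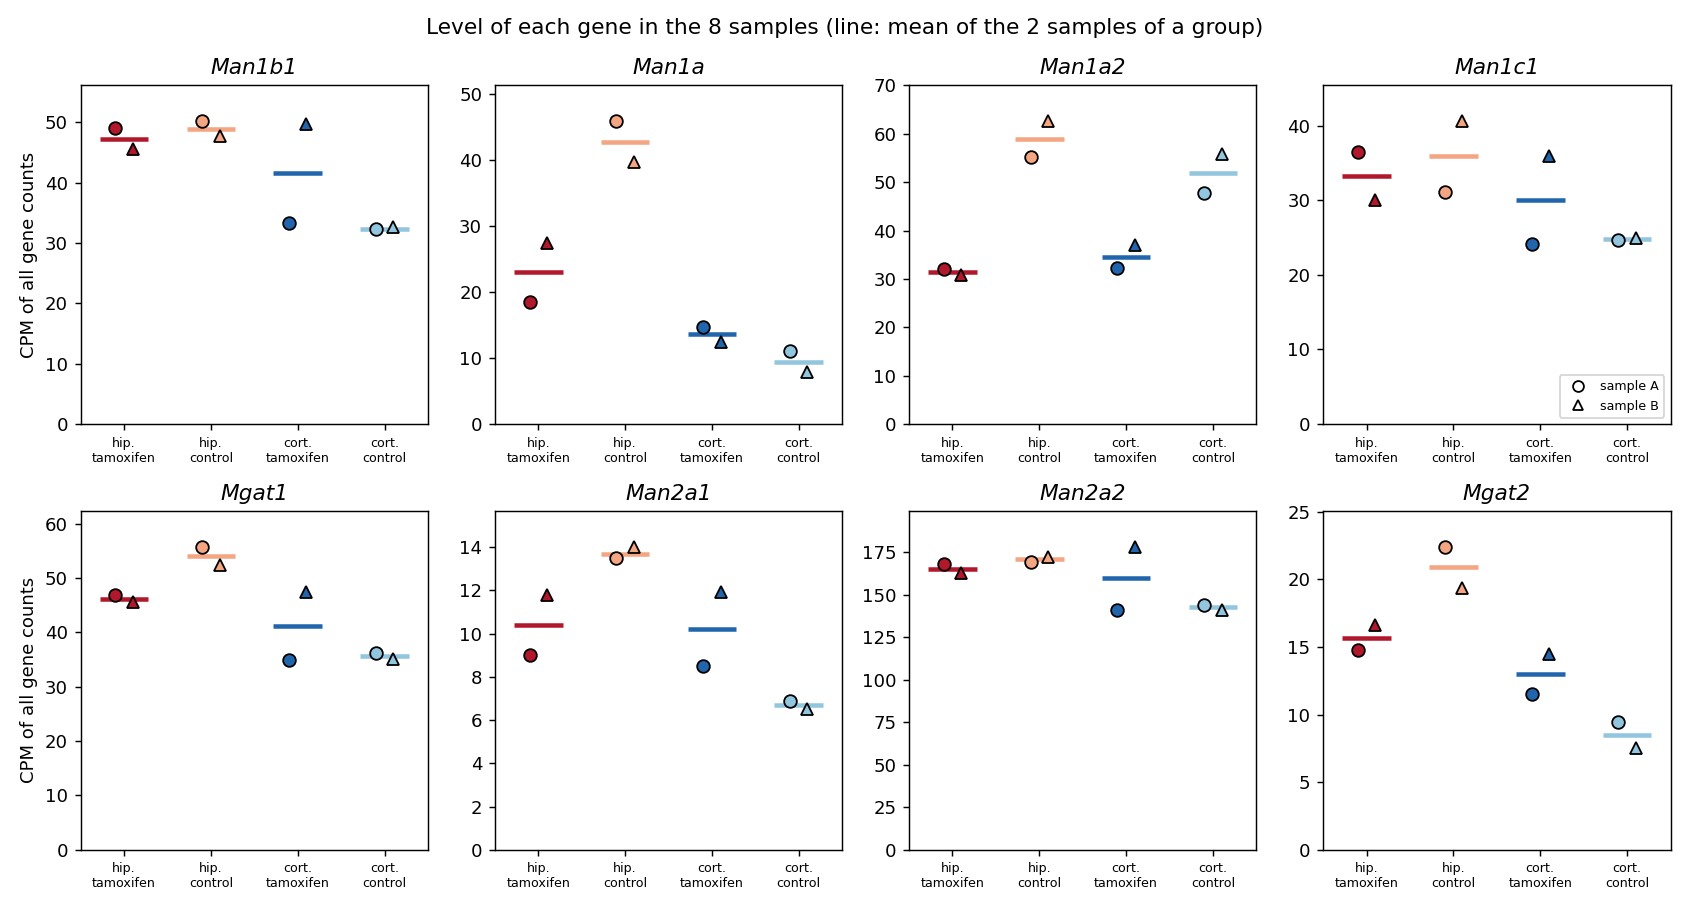
Level of each of the 8 genes, in CPM of all gene counts, in the 4 groups. Circles are sample A, triangles sample B and lines the mean of a group's 2 samples. Man1a2 lies between 30.8 and 37.1 CPM in the 4 samples labelled tamoxifen and between 47.8 and 62.6 CPM in the 4 controls, while Man1a stands highest in hippocampal controls, at 45.9 and 39.8 CPM.

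The lower values of Man1a2 in samples labelled tamoxifen chose the set, so they carry no test here. The edgeR fit, with p-values adjusted over all genes, called 0 of 18074 genes in hippocampus and 0 in cortex, 0.0% in each. At an unadjusted p under 0.05 the fit had 653 genes in hippocampus (2.14% of all genes higher and 1.47% lower) and 899 in cortex (2.47% higher and 2.51% lower). DESeq2 called 8 genes in each region. With TMM scaling, 84 of 18074 genes (0.465%) had all 4 samples labelled tamoxifen below all 4 controls, and Man1a2 is 1 of these 84. Leaving out any 1 of the 8 samples kept the Man1a2 log2 fold change between -1.0 and -0.74 in hippocampus and between -0.90 and -0.63 in cortex.

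Man1a2 lies on chromosome 3, chr3:100562208-100685503 on the minus strand in mm10, and the counter used 7956 bases of exon. The predicted gene Gm12485 overlaps it and had 0 counts in all libraries. Within 1 Mb of Man1a2, 12 other genes were tested, and none had all 4 samples labelled tamoxifen below all 4 controls. With TMM scaling that pattern held for 0.465% of all genes, so its absence among 12 genes does not set Man1a2 apart from them. At an unadjusted p under 0.05, 1 of the 12 was lower in hippocampus (Igsf3, chosen here after its values were seen, log2 fold change -0.35, SE 0.14). In cortex 2 of the 12 were higher by that measure, among them Ttf2 at 1.19 (SE 0.44). The median log2 fold change of the 12 was -0.05 in hippocampus and 0.21 in cortex. The nearest genes on the lower-coordinate side were Fam46c and Gdap2. Fam46c had log2 fold changes of -0.48 (SE 0.31) in hippocampus and 0.30 (SE 0.31) in cortex, and Gdap2 had -0.18 (SE 0.23) in hippocampus and 0.29 (SE 0.24) in cortex. On the other side the nearest were Trim45 and Ttf2. Trim45 had 0.27 (SE 0.23) in hippocampus and 0.02 (SE 0.23) in cortex, and Ttf2 had 0.43 (SE 0.43) in hippocampus. None of these 4 neighbours had a negative value in both regions.

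**Figure D2:**
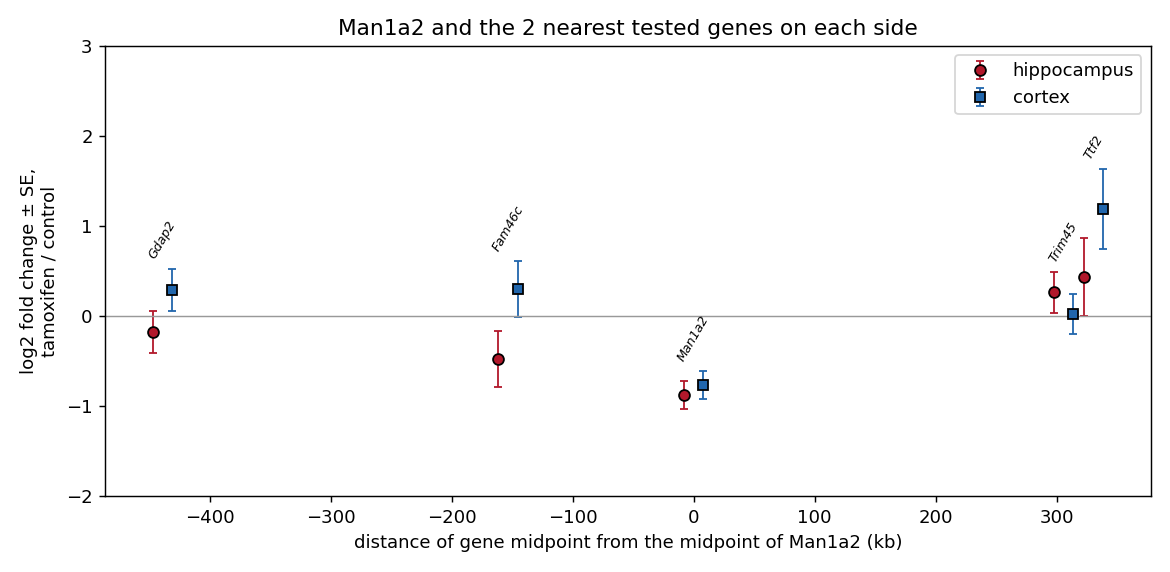
Log2 fold change (tamoxifen over control, bars ± SE) of Man1a2 and the 2 nearest tested genes on each side, against the distance between gene midpoints in kb, for hippocampus (circles) and cortex (squares). Man1a2 lies at -0.88 and -0.77, while the nearest gene on the lower-coordinate side, Fam46c, lies at -0.48 and 0.30 and the nearest on the other side, Trim45, at 0.27 and 0.02.

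Man1a, which shares its Golgi mannose-trimming role with Man1a2, lies on the minus strand at chr10:53904788-54075796. It stood at 18.5 and 27.5 CPM in hippocampal samples labelled tamoxifen, against 45.9 and 39.8 CPM in hippocampal controls. In cortex it stood at 14.7 and 12.5 CPM in samples labelled tamoxifen, against 11.0 and 7.91 CPM in controls. In cortex the order of the groups depends on the scale. With TMM scaling they overlap, at 17.8 and 11.0 CPM in samples labelled tamoxifen against 12.7 and 9.42 CPM in controls. The log2 fold change was -0.85 (SE 0.30) in hippocampus and 0.38 (SE 0.30) in cortex. Single samples carry much of both. Without sample A labelled tamoxifen the hippocampal value was -0.57, and without sample B labelled tamoxifen it was -1.22. The cortical value was -0.01 without sample A labelled tamoxifen and 0.69 without sample B labelled tamoxifen. It was 0.61 when control sample A was left out and 0.18 when control sample B was.

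Man1c1, the third Golgi class I enzyme, stood at 36.5 and 30.1 CPM in hippocampal samples labelled tamoxifen, against 31.1 and 40.6 CPM in hippocampal controls. In cortex it stood at 24.2 and 36.0 CPM in samples labelled tamoxifen, against 24.7 and 24.9 CPM in controls. The groups overlap in both regions. The log2 fold changes were -0.08 (SE 0.17) in hippocampus and 0.06 (SE 0.17) in cortex, and the hippocampal one was 0.16 without control sample B. Its gene lies at chr4:134561690-134704290 on the minus strand. Among the nearest tested genes, Mtfr1l and Tmem57 had log2 fold changes between -0.08 and 0.13 over both regions. The nearest, Sepn1, a selenoprotein of the ER, had -0.59 (SE 0.13) in hippocampus and -0.49 (SE 0.13) in cortex without passing the edgeR test.

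The 3 Golgi class I genes were set against each other per kilobase of exon, as shares of their summed level, a measure on which scaling has no bearing. Man1a2 made up 32.3 and 31.8% of that sum in hippocampal samples labelled tamoxifen, against 39.7 and 40.6% in hippocampal controls. In cortex its share was 40.8 and 37.7% in samples labelled tamoxifen, against 52.0 and 57.3% in controls. The share of Man1c1 was 51.3 and 43.2% in hippocampal samples labelled tamoxifen, against 31.2 and 36.7% in hippocampal controls. Its cortical share was 42.7 and 51.0% in samples labelled tamoxifen, against 37.5 and 35.6% in controls. Man1c1 thus held the largest share in all 4 samples labelled tamoxifen, and Man1a2 in all 4 controls. Man1a2 was picked for being lower in samples labelled tamoxifen, and the levels of Man1c1 itself overlap in both regions. The order also depends on the exon lengths, 5.71 kb for Man1c1 and 7.956 kb for Man1a2. In cortical sample A labelled tamoxifen, Man1c1 stood at 24.2 CPM and Man1a2 at 32.2 CPM. Man1a held 16.4 and 25.0% in hippocampal samples labelled tamoxifen, against 29.1 and 22.7% in their controls, and 16.4 and 11.2% in cortical samples labelled tamoxifen, against 10.5 and 7.14% in theirs. The summed level of the 3 genes, on the TMM scale, was 11.2 and 11.5 CPM per kb in hippocampal samples labelled tamoxifen, against 15.3 and 17.9 in controls. In cortex the sum was 12 and 10.8 CPM per kb in samples labelled tamoxifen, against 13.3 and 14.6 in controls.

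**Figure D3:**
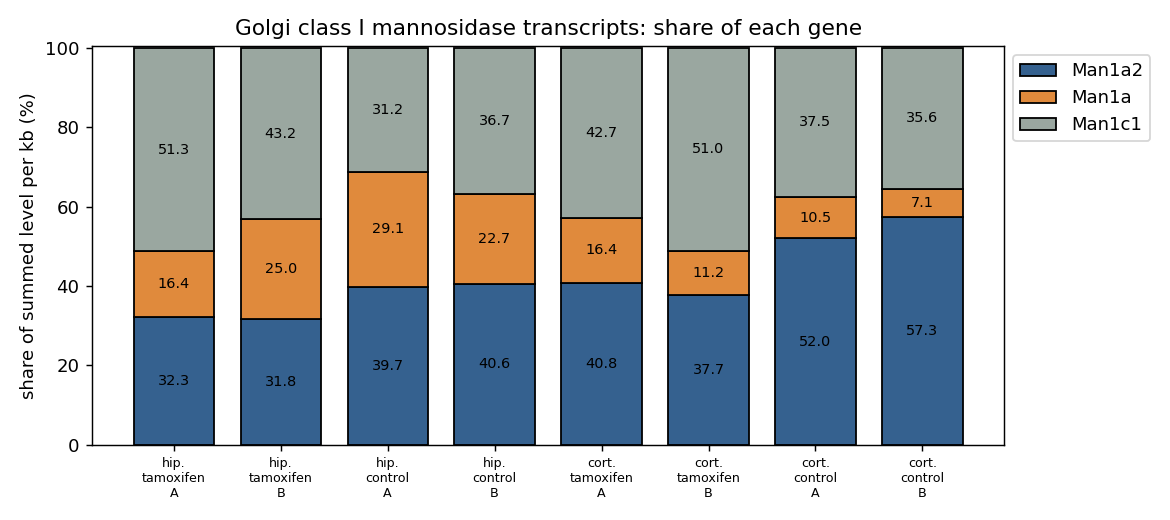
Share of Man1a2, Man1a and Man1c1 in their summed level per kb of exon (%), by sample. Each bar is 1 sample and adds to the whole. The Man1a2 share is 31.8 to 40.8% in the 4 samples labelled tamoxifen and 39.7 to 57.3% in the 4 controls, and within each region the samples labelled tamoxifen lie below the controls.

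Man1b1, the class I enzyme also linked to ER quality control (plus strand, chr2:25332338-25352212), had levels of 49.1 and 45.6 CPM in hippocampal samples labelled tamoxifen, against 50.2 and 47.7 CPM in hippocampal controls. Its cortical levels were 33.4 and 49.8 CPM in samples labelled tamoxifen, against 32.3 and 32.6 CPM in controls. The high value is that of cortical sample B, whose scaling is described above, and with TMM it becomes 43.7 CPM. The groups overlap in hippocampus. The log2 fold changes were -0.02 (SE 0.11) in hippocampus and 0.14 (SE 0.11) in cortex. Mgat1 (plus strand, chr11:49244191-49263030) stood at 46.9 and 45.6 CPM in hippocampal samples labelled tamoxifen, against 55.7 and 52.4 CPM in hippocampal controls, a log2 fold change of -0.19 (SE 0.10). Its cortical levels were 35.0 and 47.5 CPM in samples labelled tamoxifen, against 36.2 and 35.1 CPM in controls, a log2 fold change of 0.01 (SE 0.10), and the groups overlap.

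The 2 class II mannosidases are Man2a2 (minus strand, chr7:80349098-80371375) and Man2a1 (plus strand, chr17:64600736-64755110). The levels of Man2a2, the more abundant of the pair, were 168 and 163 CPM in hippocampal samples labelled tamoxifen, against 169 and 172 CPM in hippocampal controls, and 141 and 178 CPM in cortical samples labelled tamoxifen, against 144 and 141 CPM in cortical controls. Its log2 fold changes were -0.01 (SE 0.11) in hippocampus and -0.03 (SE 0.11) in cortex. Man2a1 stood at 9.01 and 11.8 CPM in hippocampal samples labelled tamoxifen, against 13.5 and 14.0 CPM in hippocampal controls. Cortical levels were 8.5 and 11.9 CPM in samples labelled tamoxifen, against 6.88 and 6.51 CPM in controls. Its log2 fold changes were -0.36 (SE 0.17) in hippocampus and 0.40 (SE 0.17) in cortex. The hippocampal one was -0.15 without sample A labelled tamoxifen and -0.62 without sample B labelled tamoxifen. Man2a1 was 4.63 and 6.18% of the summed level per kb of both genes in hippocampal samples labelled tamoxifen, against 6.74 and 6.87% in their controls. In cortex it was 5.17 and 5.69% in samples labelled tamoxifen, against 4.14 and 4.03% in controls.

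Mgat2 (plus strand, chr12:69184158-69186772) had the same signs as Man2a1. It stood at 14.8 and 16.6 CPM in hippocampal samples labelled tamoxifen, against 22.4 and 19.4 CPM in hippocampal controls, a log2 fold change of -0.37 (SE 0.15). Cortical levels were 11.5 and 14.5 CPM in samples labelled tamoxifen, against 9.43 and 7.55 CPM in controls, a log2 fold change of 0.42 (SE 0.15). Man2a1 and Mgat2 thus had both samples labelled tamoxifen below both controls in hippocampus and above them in cortex, on either scale. With TMM scaling that pattern held for 733 of 18074 genes, 4.06%. In the difference of the 2 tamoxifen effects the edgeR fit called 0 of 18074 genes (0.0%), with 981 at an unadjusted p under 0.05 and 3 called by DESeq2.

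Markers of another tissue varied beside Man1a, Man2a1 and Mgat2. The 5 choroid plexus markers, among them Ttr, which this epithelium makes in very large amounts, summed to 44.0 and 7930 CPM in hippocampal samples labelled tamoxifen, against 16800 and 7850 CPM in hippocampal controls. They summed to 4930 and 4.38 CPM in cortical samples labelled tamoxifen, against 920 and 4.57 CPM in cortical controls. The groups overlap in both regions. All 5 had negative log2 fold changes in hippocampus (median -1.55) and positive ones in cortex (median 2.40), none passed, and none was at 0 in any sample. Their part in the values of Man1a, Man2a1 and Mgat2 was not tested.

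**Figure D4:**
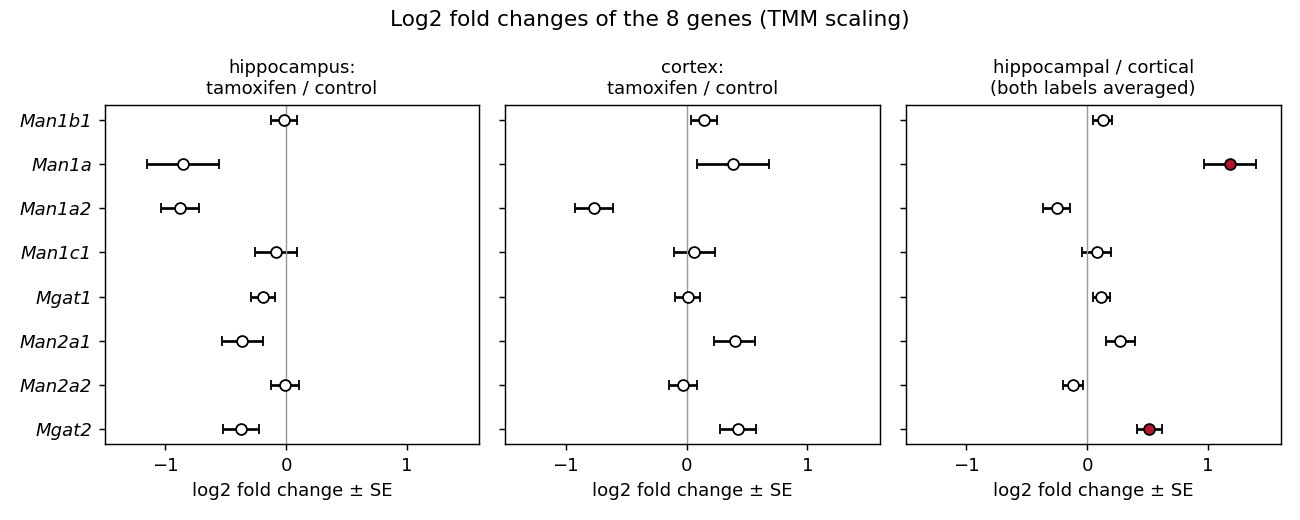
Log2 fold change with TMM scaling (points, bars ± SE) of the 8 genes for tamoxifen over control in hippocampus and in cortex, and for hippocampal over cortical samples with both labels averaged. Filled points passed the test between regions: Man1a at 1.18 and Mgat2 at 0.52. Man1a2 is the lowest point in both tamoxifen panels, at -0.88 and -0.77.

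The comparison of hippocampal with cortical samples, averaged over both labels, did not enter the choice of the set and was tested. Man1a and Mgat2 were higher in hippocampal samples, and the other 6 genes did not pass. Of all 18074 genes, 8.42% were called higher and 9.94% lower. The log2 difference of Man1a was 1.18 (SE 0.21, edgeR adjusted p = 0.014), 2.27 times the cortical level. With TMM scaling hippocampal sample A labelled tamoxifen, at 16.6 CPM, lies within the cortical range of 9.42 to 17.8 CPM. Mgat2 had 0.52 (SE 0.11, edgeR adjusted p = 0.0207), 1.43 times the cortical level. For Mgat2, too, the regions overlap with TMM scaling (13.3 to 19.6 CPM in hippocampal samples, against 9.0 to 14.0 CPM in cortical ones).

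Between the controls alone, the log2 difference was 1.80 for Man1a (SE 0.31, edgeR adjusted p = 0.0327) and 0.91 for Mgat2 (SE 0.15, edgeR adjusted p = 0.0314). Between the samples labelled tamoxifen alone, Man1a had 0.56 (SE 0.30, edgeR adjusted p = 0.328) and Mgat2 0.12 (SE 0.15, edgeR adjusted p = 0.712). The call of each gene between regions was lost when any 1 control sample was left out, with edgeR adjusted p from 0.0512 to 0.0725 for Man1a and from 0.0557 to 0.0991 for Mgat2, whose call was also lost without hippocampal sample B labelled tamoxifen (0.071). Of the genes that did not pass, Man2a1 had 0.27 (SE 0.12, edgeR adjusted p = 0.154), Man1a2 -0.25 (SE 0.11, edgeR adjusted p = 0.155), Man1b1 0.13 (SE 0.08), Mgat1 0.12 (SE 0.07), Man1c1 0.08 (SE 0.12) and Man2a2 -0.12 (SE 0.08). Cell type markers also differed between regions. Of the inhibitory neuron markers, 6 of 6 were called lower in hippocampal samples (summed levels of 67.3 to 107 CPM there, against 96.6 to 245 CPM in cortical samples). Of the microglia markers 5 of 6 were called higher (1070 to 1760 CPM in hippocampal samples, against 508 to 665 CPM in cortical ones), as were 5 of 6 astrocyte markers (2120 to 2630 CPM in hippocampal samples, against 985 to 1290 CPM in cortical ones). All 4 oligodendrocyte precursor markers were called higher (202 to 320 CPM in hippocampal samples, against 76.9 to 148 CPM in cortical ones), and so were 3 of 5 mural cell markers (353 to 411 CPM in hippocampal samples, against 194 to 238 CPM in cortical ones). Of the excitatory neuron markers 3 of 6 were called lower (5220 to 7440 CPM in hippocampal samples, against 5890 to 9340 CPM in cortical ones). The choroid plexus markers were positive for 5 of 5 genes with none called (median 2.5, sums of 44.0 to 16800 CPM in hippocampal samples, against 4.38 to 4930 CPM in cortical ones). None of these markers was at 0, and their part in the values of Man1a and Mgat2 was not tested.

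The promoters of the 2 genes called between regions are shown because their levels also moved together over the 8 samples. The sequences are from RefSeq (GRCm38.p6), which matched 6 of the 8 genes, and run 5′ to 3′ up to the exon at which the deposited files start each gene, with CCAAT and GGGCGG on either strand in capitals.
Man1a, chr10:54075797-54075987, minus strand: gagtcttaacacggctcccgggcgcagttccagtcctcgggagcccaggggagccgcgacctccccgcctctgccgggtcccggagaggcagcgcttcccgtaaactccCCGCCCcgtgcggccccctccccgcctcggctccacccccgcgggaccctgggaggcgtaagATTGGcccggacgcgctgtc
Mgat2, chr12:69183908-69184156, plus strand: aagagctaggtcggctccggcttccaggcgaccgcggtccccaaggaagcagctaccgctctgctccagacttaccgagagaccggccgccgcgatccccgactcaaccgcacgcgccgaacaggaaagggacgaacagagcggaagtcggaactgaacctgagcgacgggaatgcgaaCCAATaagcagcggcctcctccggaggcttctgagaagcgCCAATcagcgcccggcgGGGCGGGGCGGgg

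In the 250 bases before the RefSeq start, Man1a holds 1 CCAAT and 2 GGGCGG and Mgat2 holds 2 of each, its 2 copies of GGGCGG overlapping by a base. CCAAT occurred in 33.8% and GGGCGG in 32.7% of 32851 mouse promoters of that length. The ER stress element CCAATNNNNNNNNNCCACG (0.113% of promoters), the cAMP response element TGACGTCA (1.55%) and the E box CACGTG (6.02%) had no match in the windows of any of the 6 genes. A GENCODE transcript of Man1a starts farther upstream, and the printed Man1a bases lie in an intron of it. A match is a description of letters, not of a bound site.

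Per kilobase of exon, Man2a2 stood far above the rest of the set, with a median of 25.3 CPM per kb (lowest 21.5, highest 27.3) over the 8 samples. Mgat1 had 9.8 (7.4 to 11.8), Man1b1 8.67 (6.0 to 9.33), Mgat2 5.62 (2.89 to 8.55), Man1c1 5.36 (4.23 to 7.11) and Man1a2 5.33 (3.87 to 7.87). Man1a had 1.84 (0.874 to 5.08) and Man2a1 1.45 (0.904 to 1.94). Apart from Man2a2, the range of each gene overlaps that of its neighbour in this order. By mean level per kb, 92.3% of the tested genes lay below Man2a2 and 41.4% below Man2a1.

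Over the 8 samples, on log2(CPM + 0.5) with TMM scaling, the genes that follow one another were Man1a and Mgat2 (Pearson r = 0.95), Man1a and Mgat1 (0.89) and Man2a1 and Mgat2 (0.88). Man1a2 stood aside from all of these, with r from -0.53 (Man1b1) to 0.48 (Man2a2). These values are descriptions over 8 samples that share regions and labels. Among 12203 other genes with a mean of at least 1 CPM, the 5 most like Man1a2 were Rcc1 (r = 0.96), Zbtb8os (0.95), Tank (0.94), Atg4c (0.93) and Ccdc94 (0.91). The 5 most opposed were Ap5z1 (-0.93), Ngrn (-0.92), Per2 (-0.92), Hmgn2 (-0.91) and Emc1 (-0.90). Rcc1, which loads the small GTPase Ran, stood on the TMM scale at 4.72 and 4.46 CPM in hippocampal samples labelled tamoxifen, against 5.80 and 7.28 CPM in their controls. In cortex it stood at 5.06 and 5.14 CPM in samples labelled tamoxifen, against 6.29 and 7.85 CPM in controls. The clock gene Per2 ran the other way, with 12.6 and 12.5 CPM in hippocampal samples labelled tamoxifen, against 9.90 and 9.37 CPM in hippocampal controls. It had 10.4 and 12.3 CPM in cortical samples labelled tamoxifen, against 8.13 and 9.27 CPM in cortical controls. Of these 10 genes, all but Atg4c had the 4 samples labelled tamoxifen apart from the 4 controls, a pattern that likeness to Man1a2 favours, and 5 lie on chromosome 4, which holds 6.49% of the genes compared.

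The other genes of the N-glycan pathway give the setting. Of 84 listed, 83 were tested. In hippocampus 64 of the 83 had a negative log2 fold change for tamoxifen over control (median -0.14, against -0.01 over all genes, of which 9268 of 18074 were negative), 0 passed, and 8 were lower and 0 higher at an unadjusted p under 0.05. In cortex 58 of the 83 had a positive one (median 0.12, against 0.04 over all genes, of which 10017 of 18074 were positive), 0 passed, and 4 were higher and 1 lower at an unadjusted p under 0.05.

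The ER glucosidases and folding lectins, which trim glucose and hold unfolded glycoproteins before the mannosidases act, were negative for 8 of 8 genes in hippocampus (median -0.29). Those of smallest p were the lectin chaperone Calr (-0.51, SE 0.16), its partner Pdia3 (-0.51, SE 0.17) and the glucosidase II subunit Prkcsh (-0.33, SE 0.14), each with an edgeR adjusted p = 1. In cortex 7 of 8 were positive (median 0.16), with the glucosidase Mogs at 0.26 (SE 0.14), Pdia3 at 0.28 (SE 0.17) and Calr at 0.20 (SE 0.16). The oligosaccharyltransferase, which transfers the precursor to proteins, was negative for 11 of 12 genes in hippocampus (median -0.23), led by Rpn1 (-0.31, SE 0.13), Stt3a (-0.37, SE 0.16) and Ostc (-0.31, SE 0.16). In cortex 7 of 12 were positive (median 0.09), and those of smallest p were Tusc3 (0.82, SE 0.32), Magt1 (-0.31, SE 0.17) and Rpn1 (0.19, SE 0.13). Tusc3 stood at 22.2 and 53.3 CPM in cortical samples labelled tamoxifen, against 19.1 and 16.6 CPM in controls. The high value is that of cortical sample B. Precursor assembly was negative for 19 of 23 genes in hippocampus (median -0.06), with the glucosyltransferase Alg8 at -0.64 (SE 0.21) and Srd5a3 at -0.28 (SE 0.16). In cortex 18 of 23 were positive (median 0.13), with the dolichol synthesis genes Dhdds at 0.43 (SE 0.17) and Srd5a3 at 0.37 (SE 0.16) and the mannosyltransferase Alg2 at 0.57 (SE 0.26). Alg2 stood at 21.1 and 52.7 CPM in cortical samples labelled tamoxifen, against 19.9 and 21.4 CPM in controls. Here, too, the high value is that of cortical sample B.

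Mannosidases outside the set, among them lysosomal, cytosolic and endo-acting ones, were negative for 5 of 6 genes in hippocampus (median -0.30), with the lysosomal enzymes Manba at -0.48 (SE 0.18) and Man2b1 at -0.33 (SE 0.17) and with Man2b2 at -0.39 (SE 0.18). In cortex 4 of 6 were positive (median 0.15), and Maneal had 0.41 (SE 0.31), Man2b1 0.17 (SE 0.17) and the endomannosidase Manea 0.16 (SE 0.17). Maneal stood at 8.21 and 23.2 CPM in cortical samples labelled tamoxifen, against 10.1 and 9.38 CPM in controls. Its high value is that of sample B, and sample A lies below both controls. The ER degradation list, which reads trimmed mannose as a signal for disposal, had a median of -0.09 in hippocampus and 0.08 in cortex. Its genes of smallest p were the lectins Erlec1 (-0.49, SE 0.19) and Os9 (-0.16, SE 0.11) and the mannosidase-like Edem1 (-0.25, SE 0.18) in hippocampus. In cortex they were Edem1 (-0.31, SE 0.18), Sel1l (0.26, SE 0.16) and Os9 (0.11, SE 0.11). The cargo lectin list holds lectins that carry mannose-bearing proteins out of the ER and Mcfd2, a protein partner of Lman1. In hippocampus Mcfd2 had -0.45 (SE 0.17), Lman2 -0.27 (SE 0.12) and Lman2l -0.10 (SE 0.11). In cortex Mcfd2 had 0.22 (SE 0.17), Lman1 0.13 (SE 0.14) and Lman2l 0.09 (SE 0.11).

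The steps after Mgat2 make branches and cap them. Later branching and core fucose had a median of 0.15 in hippocampus. Of the branching enzymes, Mgat5b had 0.38 (SE 0.18), Mgat4a -0.28 (SE 0.15) and Mgat4b -0.21 (SE 0.12) there. The cortical median was 0.08, with Mgat4c at 1.70 (SE 0.61), Mgat4a at 0.13 (SE 0.15) and Mgat3 at 0.11 (SE 0.13). Galactose and sialic acid capping had medians of 0.05 in hippocampus and -0.04 in cortex. The hippocampal genes of smallest p were B4galt1 (-0.65, SE 0.33), St8sia2 (0.50, SE 0.37) and St3gal4 (0.14, SE 0.12), and the cortical ones St3gal4 (-0.37, SE 0.12), St8sia3 (0.66, SE 0.45) and St8sia4 (-0.40, SE 0.32). In cortical samples labelled tamoxifen, St8sia3 stood at 11.2 (A) and 46.9 CPM (B), against 16.4 and 13.3 CPM in controls. Mgat4c, at low levels, had 0.383 (A) and 1.94 CPM (B), against 0.277 and 0.295 CPM. The positive values of both genes thus rest largely on cortical sample B. The Golgi sugar transporters, which bring the nucleotide sugars these enzymes use, had medians of -0.13 in hippocampus and 0.02 in cortex. There Slc35a3 had -0.45 (SE 0.16), Slc35a1 -0.53 (SE 0.25) and Slc35d1 0.16 (SE 0.13) in hippocampus, and Slc35a1 had 0.30 (SE 0.25), Slc35d1 -0.12 (SE 0.14) and Slc35c1 0.12 (SE 0.29) in cortex. None of the genes in these lists passed in either region. The unfolded protein response list, ER chaperones and their regulators, was negative for 14 of 16 genes in hippocampus (median -0.37, 6 lower at an unadjusted p under 0.05, 0 passed) and positive for 11 of 16 in cortex (median 0.19).

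**Figure D5:**
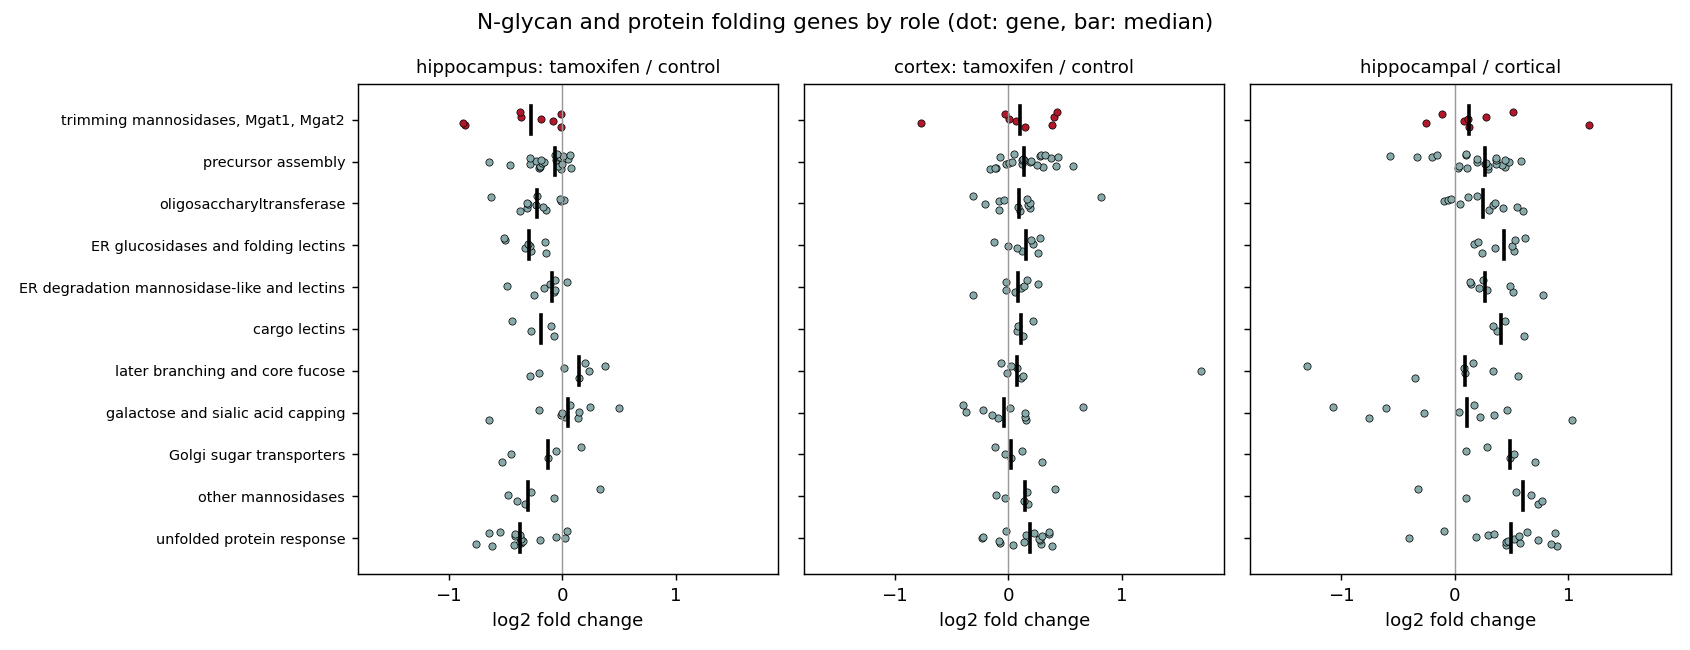
Log2 fold changes (x axis) of the 8 genes in the top row and of the other N-glycan and unfolded protein response genes by role, for tamoxifen over control in hippocampus and in cortex and for hippocampal over cortical samples. Each dot is a gene and each bar a median. The ER glucosidases and folding lectins lie left of 0 in hippocampus (median -0.29) and right of 0 between regions (median 0.43).

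Between regions 29 of the 83 genes were called higher in hippocampal samples and 4 lower, beside the 8.42% and 9.94% of all genes, and the rest did not pass. The median log2 fold change was 0.28, against 0.00 over all genes. Called higher were 5 of 8 ER glucosidases and folding lectins, among them Ganab (0.52, SE 0.09, edgeR adjusted p = 0.0116), the catalytic subunit of glucosidase II, the folding sensor Uggt1 (0.51, SE 0.09) and Pdia3 (0.62, SE 0.12). All 4 genes of the cargo lectin list were called higher, among them Lman1 (0.61, SE 0.10), Lman2 (0.38, SE 0.08) and Lman2l (0.34, SE 0.08). So were 4 of 6 other mannosidases, among them Man2b2 (0.77, SE 0.13), Man2b1 (0.74, SE 0.12) and Manba (0.68, SE 0.13), and 3 of 5 sugar transporters, Slc35a2 (0.49, SE 0.09), Slc35a3 (0.52, SE 0.11) and Slc35a1 (0.71, SE 0.18). The oligosaccharyltransferase had 4 of 12 called higher, among them Rpn2 (0.55, SE 0.08), Stt3a (0.60, SE 0.11) and Rpn1 (0.42, SE 0.09). The ER degradation list had 2 of 8, Edem1 (0.78, SE 0.13) and Edem2 (0.51, SE 0.11), with Erlec1 just short of the threshold (0.49, SE 0.14, edgeR adjusted p = 0.0503).

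Genes on both sides of 0 appeared at both ends of the pathway. In precursor assembly 4 of 23 were called higher, among them Alg10b (0.59, SE 0.11) and Alg1 (0.44, SE 0.11), and 1 lower, Nus1 (-0.33, SE 0.08), a subunit of the dolichol synthase. In later branching Mgat4a was called higher (0.55, SE 0.11), and Mgat5b (-1.30, SE 0.13, edgeR adjusted p = 0.00383) and Mgat3 (-0.35, SE 0.09), which adds the bisecting N-acetylglucosamine, were called lower. In capping, B4galt1 (1.04, SE 0.24) and St6gal1 (0.34, SE 0.09) were called higher and B4galt2 (-0.75, SE 0.10) lower.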

How the data were processed

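Per the submitters' processing notes, STAR, HTSeq and mm10 were used; their versions, the annotation release and the strand setting were not stated there. The authors deposited raw counts per gene. The RPKM values they deposited beside the counts can be recomputed from count, exon length and library total (100% of values within a relative tolerance of 1e-06) and were not tested. Rows that name no gene were left out of the library sizes: 27.5 to 35.4% of counts were multiply aligned and 3.64 to 7.93% outside genes.

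Neighbouring libraries of a group were summed to 8 samples. At sums over 4000 counts their squared differences were 3.12 to 6.50 times (median gene) what counting alone gives, against 13.6 to 748 times for other pairs of a group, so they are not one library deposited again. Genes were filtered with filterByExpr, scaled with TMM and tested in edgeR 4.0.16 (R 4.3.3) by the robust quasi-likelihood test with a mean per group and Benjamini-Hochberg adjustment over 18074 genes (threshold 0.05). SE was taken as the fold change on the log2 scale over the root of the F statistic. The fit was checked on simulated data. The deviations of same-lettered samples correlated at r from -0.41 to 0.28 over the 6 pairs of groups, above 0.1 in 2 of them, so no pairing was used. Alternatives were DESeq2 1.42.0, 16 separate libraries, other scalings, no filter, no mitochondrial genes, replicate blocks and leaving out each sample.

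The members, lists and rules were chosen with earlier results of these data known. Genes named outside the set were up to 3 of smallest p per N-glycan list and contrast, the 2 nearest tested genes on each side of Man1a2 and Man1c1, and the 5 most and 5 least correlated with Man1a2, leaving out predicted, Rik, mitochondrial, pseudogene and sex-linked entries. Some genes that these rules pick are not reported here. Coordinates are mm10.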

Additional observations from a re-analysis of the deposited data

Results flagged for a closer look

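Man2a1 and Mgat2 were flagged because their tamoxifen effects had opposite signs in the 2 regions. Both samples labelled tamoxifen lay below both controls in hippocampus and above both in cortex. With TMM scaling 733 of all 18074 genes (4.06%) had that order of samples. The hippocampal minus the cortical effect was -0.76 (log2, SE 0.24) for Man2a1 and -0.80 (SE 0.21) for Mgat2. Both genes belong to a set chosen with these contrasts known, so the difference was not tested for them alone. The edgeR fit over all 18074 genes called 0 in that difference.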

How the results depend on the processing

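The edgeR calls for tamoxifen against control stayed at 0 in hippocampus and in cortex with RLE or upper quartile scaling, without mitochondrial genes and with the sample letter as a replicate block. Counting 16 libraries separately treats neighbouring libraries, which were so alike, as independent samples. It gave 318 calls in hippocampus, 562 in cortex and 8480 between regions, with 7 of the 8 genes called between regions. With the library number as a replicate block over 16 libraries these were 89, 313, 8000 and 7, and with the letter as a replicate block over 8 samples 2110 genes and 2 of the 8 were called between regions (3318 and 2 without the block). DESeq2 called 8 genes in each tamoxifen contrast, and without a count filter 1 gene was called in cortex. Leaving out 1 sample gave 0 calls in hippocampus each time, 0 to 2014 in cortex (2014 without sample A labelled tamoxifen, 1 without sample B labelled tamoxifen), 369 to 6144 between regions (over 1.5 times away from 3318 for each sample except cortical sample B labelled tamoxifen) and 0 to 2 of the 8 genes. Among controls alone 1118 genes were called between regions, and among samples labelled tamoxifen 202 genes and 0 of the 8. The cause of these changes was not tested, beyond fewer samples entering the leave-outs. Man1a2 kept its negative sign in both tamoxifen contrasts under all 16 alternatives. It was picked for that sign in these same samples, so this describes only the dependence on processing. Of 256 tamoxifen fold changes of the 8 genes under the alternatives, 12 had another sign than reported, each within 0.17 of 0, and Man1c1 between regions, which did not pass, ranged from -0.0417 without hippocampal control sample B to 0.1877 without hippocampal control sample A. Deviations of same-numbered libraries correlated at r from 0.18 to 0.21 between the cortical groups and from -0.17 to -0.13 between the hippocampal groups. The lowest count of any of the 8 genes in a library was 227, for Man2a1.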
